A study of Mus musculus with 21 samples.

Results

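The tumors compared here arose in mice in which the same oncogene was switched on by Cre recombinase from 2 different promoters. All 15 tumors of genotype aP2-Cre/+;SmoM2/+ and all 3 of genotype Myogenin-Cre/+;SmoM2/+ were taken by their genotype labels, 18 of the 21 samples of the series. The other 3 samples are sternocleidomastoid, a neck muscle, of genotype SmoM2/+. Their levels are given only for orientation, but their arrays also entered the normalization, the probe filter and the spread of the main fit. Gene expression was measured on bead arrays, 1 array per sample, in mice whose strain is given as mixed C57Bl/6 and 129X1/SvJ and whose ages and tumor sites the labels do not give. SmoM2 is an activated form of Smoothened, the membrane protein that turns on Hedgehog signalling, and the submitters describe the tumors as models of embryonal rhabdomyosarcoma, a childhood cancer that resembles developing skeletal muscle. Each tumor carries its own mouse number, so the replicates are separate mice.

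The drivers differ in where they act. The aP2 promoter belongs to Fabp4, a fatty acid carrier of fat cells, and Cre lines that use it are also known to be active in some cells outside fat, such as endothelial cells and macrophages. Myogenin is a transcription factor switched on when muscle precursor cells begin to differentiate, so Myogenin-Cre acts in cells already committed to muscle. Rhabdomyosarcomas keep the transcription factors of the muscle lineage without completing differentiation. Tumor pieces also hold immune, vascular, fat and connective tissue cells, and MHC class II molecules, which present peptides to T cells, are made mainly by macrophages, dendritic cells and B cells. In bulk RNA, fewer cells of a type and less RNA per cell cannot be told apart.

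Levels are normalized log2 intensities, so a difference of 1 is a factor of 2, and a gene was called at an adjusted p under 0.05 in limma over 11034 genes. The authors' own normalization treated the arrays as 5 separate sets. The Myogenin-Cre tumors lie in 1 of these, together with aP2-Cre tumors 89, 90 and 95. Differences are therefore also given within this shared set, for single genes or as counts of a list's members. An adjusted p or a call within the set comes, unless the set alone is named, from the fit with the array set as a block, which compares 3 aP2-Cre with 3 Myogenin-Cre tumors and takes the spread from all arrays. On the tumor arrays 34.4% to 39.8% of probes were detected, and the number of arrays, 3 Myogenin-Cre tumors in all, limits the precision of every value. Of the 11034 genes, 891 (8.08%) were called higher and 847 (7.68%) lower in aP2-Cre tumors, 15.8% in all. With the set as a block 201 (1.82%) were higher and 208 (1.89%) lower, 3.71% in all, and 365 genes were called in the same direction in both fits, which is 21% of the calls over all tumors and 89.2% of those with the block. In the 6 arrays of the shared set alone limma called 45 genes (0.408%), 33 higher (0.299%) and 12 lower (0.109%), with 1839 at an unadjusted p under 0.05. The groups did not overlap in 3.23% of genes with aP2-Cre tumors above and in 2.4% with Myogenin-Cre tumors above, or in 12.3% and 9.62% within the set. The count over all tumors was 615 without Myogenin-Cre tumor 41, 366 without tumor 43 and 2193 without tumor 42. On the first principal component, which held 38% of the variance, Myogenin-Cre tumor 42 was at -4.27, within the aP2-Cre range of -37.6 to 45.0, whereas tumors 41 and 43 were at -64.6 and -45.5. On the second, which held 14.7%, tumors 42 and 43 were at 26.3 and 39.8, above the aP2-Cre range of -32.6 to 24.6. Tumor 41, at -2.45, was within it.

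**Figure D1:**
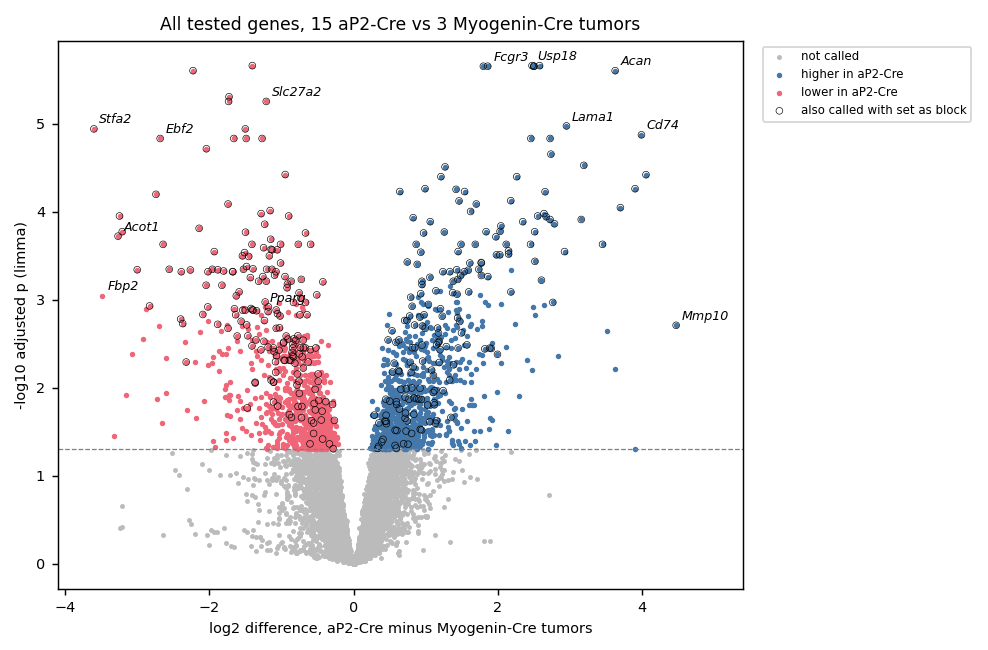
Each point is 1 of the 11034 tested genes, with the log2 difference of 15 aP2-Cre minus 3 Myogenin-Cre tumors on the x axis and -log10 of limma's adjusted p on the y axis. Blue points (891) were called higher and red points (847) lower in aP2-Cre tumors, rings mark genes also called with the array set as a block, and the dashed line is an adjusted p of 0.05.

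Promoters of some genes called higher in aP2-Cre tumors are shown here, chosen because they hold short sequence elements that a minority of such genes have. The 250 bases before each gene's start (RefSeq, build GRCm38.p6) were searched on both strands for such elements. These were the Y box of MHC genes, CTGATTGG or its reverse CCAATCAG, and the interferon-stimulated response element. The latter was taken as GAAA, any 2 bases and GAAA again, or the reverse. The Y box letters occurred in 3 of the 8 MHC class II genes called higher that had a promoter in the table (37.5%), namely H2-Aa, H2-Eb1 and H2-Oa, in 5 of 12 such MHC class I genes (41.7%), in 4.43% of the 27025 genes with a promoter, and in 5.94% of the 8883 such genes among those tested here. The response element letters occurred in 6 of 15 interferon-stimulated genes called higher (40.0%), among them Gbp3 and Isg15, in 3.46% of all genes with a promoter, and in 3.3% of those tested. These matches are a description of letters, not of bound sites. The 130 bases before the gene start are printed for 2 genes of each kind, 5′ to 3′ on the gene's strand, with the matching letters in capitals. H2-Eb1 lies at chr17:34305737-34305866 on the plus strand, H2-Aa at chr17:34287824-34287953 on the minus strand, Isg15 at chr4:156200819-156200948 on the minus strand and Gbp3 at chr3:142559914-142560043 on the plus strand.
H2-Eb1: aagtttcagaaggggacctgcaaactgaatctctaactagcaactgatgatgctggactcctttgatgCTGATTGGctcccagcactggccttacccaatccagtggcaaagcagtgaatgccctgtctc
H2-Aa: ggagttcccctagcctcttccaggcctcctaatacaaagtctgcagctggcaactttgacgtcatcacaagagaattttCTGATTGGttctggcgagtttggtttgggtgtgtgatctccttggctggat
Isg15: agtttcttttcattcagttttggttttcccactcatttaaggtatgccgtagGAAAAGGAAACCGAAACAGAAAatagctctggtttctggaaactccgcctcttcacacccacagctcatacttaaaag
Gbp3: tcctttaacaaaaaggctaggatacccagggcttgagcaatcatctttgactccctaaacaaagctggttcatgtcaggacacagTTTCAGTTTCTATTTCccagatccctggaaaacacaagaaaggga
In Isg15 the capitals join 3 overlapping matches, and in Gbp3 they join 2 matches on the opposite strand.

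Genes of MHC class II antigen presentation were higher in aP2-Cre tumors than in Myogenin-Cre tumors. Of 15 measured members of this list, 11 were called higher, 0 lower, and 10 had every aP2-Cre tumor above every Myogenin-Cre tumor, a pattern seen in 3.23% of all genes in this direction. Cd74, the invariant chain that guides class II molecules to the endosome, ranged from 11.25 to 14.40 in aP2-Cre tumors with a median of 12.90, and was 9.36, 9.72 and 7.84 in Myogenin-Cre tumors 41, 42 and 43. The groups did not overlap, tumor 115 was the highest and tumor 104 the lowest of the aP2-Cre tumors, and the mean was 12.96 ± 0.80 (SD, n = 15) against 8.97 ± 1.00 (n = 3), 15.9-fold higher (adjusted p = 1.34e-05). Within the shared set tumors 89, 90 and 95 had 12.67, 11.92 and 12.58, and the difference was 10.7-fold (adjusted p = 0.00835). H2-Eb1, the beta chain of the I-E class II molecule whose promoter is printed above, had 10.42 to 13.68 with a median of 11.90 in aP2-Cre tumors and 8.50, 8.56 and 6.87 in Myogenin-Cre tumors. It was 16.6-fold higher (adjusted p = 3.81e-05), again without overlap, and 9.78-fold higher within the set (adjusted p = 0.0114).

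H2-Aa and H2-Ab1, the chains of the I-A class II molecule, followed the same order. H2-Aa had 8.95 to 11.87 with a median of 9.99 in aP2-Cre tumors and 6.83, 7.31 and 5.01 in Myogenin-Cre tumors, where it was detected on 2 of 3 arrays, and was 14.9-fold higher (adjusted p = 5.5e-05, and 0.0149 within the set). H2-Ab1 had 11.02 to 14.06 with a median of 12.64 against 9.49, 9.87 and 7.59, a 13-fold difference (adjusted p = 9.03e-05, and 0.0169 within the set). For both, Myogenin-Cre tumor 43 was the lowest of all 18 tumors. H2-DMb2, a chain of the molecule that loads peptide onto class II, was 10.9-fold higher (adjusted p = 0.000236, and 0.0175 within the set), also without overlap. Ciita, the coactivator that switches on class II genes, was not well above background in any Myogenin-Cre tumor, had 5.41 to 8.90 in aP2-Cre tumors, all detected, and was at least 2.99-fold higher (adjusted p = 0.00634, or 0.169 with the set as a block, where it was not called). Among the tumors, Ciita and another member of this list, H2-Oa, entered the tested genes only through aP2-Cre arrays, which favours a difference. The median difference of the class II list was 2.47, or 1.58 with Ciita and H2-Oa at their bounds, against 0.01 over all genes, and was 1.82 within the set, where 7 members were called, or 1 in a fit of the set's arrays alone. Neck muscle lay between the tumors, with a mean for Cd74 of 10.24 and for H2-Eb1 of 9.14.

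**Figure D2:**
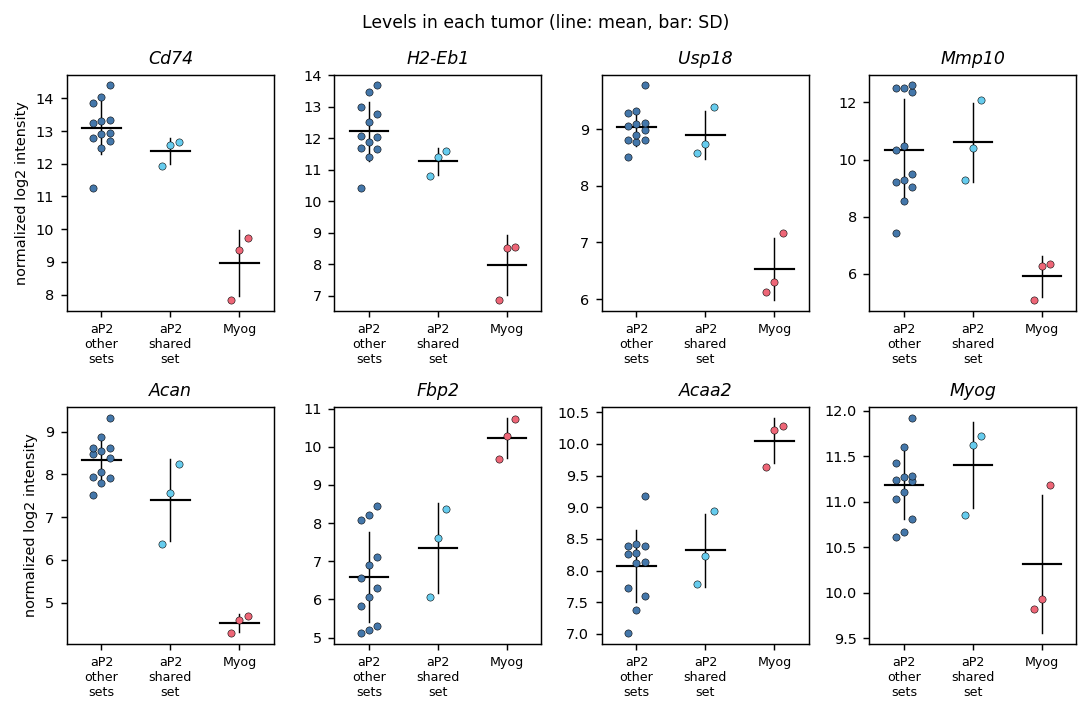
Normalized log2 intensity (y axis) of 8 genes in each tumor: the 12 aP2-Cre tumors of other array sets, the 3 of the shared set and the 3 Myogenin-Cre tumors (Myog). Lines are means and bars are SDs. Cd74, H2-Eb1, Usp18, Mmp10 and Acan are higher in every aP2-Cre tumor, Fbp2 and Acaa2 are lower in every one, and for Myog Myogenin-Cre tumor 42 lies among the aP2-Cre tumors.

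MHC class I genes, which present peptides made inside the cell, were also higher in aP2-Cre tumors. Of 20 measured members 16 were called higher and 0 lower, with a median difference of 1.34 (1.14 with 3 members at their bounds) and of 1.01 within the set, where 5 were called, and 5 in the set alone. Without Myogenin-Cre tumor 41 or 43 the count was 10 and 9. The 3 members with bounds entered the tested genes, among the tumors, only through aP2-Cre arrays, which favours a difference. B2m, the light chain of all class I molecules, had 12.46 to 14.12 with a median of 12.87 in aP2-Cre tumors and 11.01, 11.55 and 11.07 in Myogenin-Cre tumors. The groups did not overlap and the difference was 3.57-fold (adjusted p = 0.000169, and 0.0236 within the set). H2-D1, a class I heavy chain, was 4.08-fold higher, Psmb8, a subunit of the immunoproteasome that makes class I peptides, 4.43-fold, and H2-M3, a nonclassical heavy chain, 3.22-fold (adjusted p = 0.000168, 0.000304 and 0.000236, and within the set 0.0211, 0.0287 and 0.024). Each of these kept every aP2-Cre tumor above every Myogenin-Cre tumor.

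Interferon-stimulated genes, which cells switch on in answer to interferons, were higher in aP2-Cre tumors. Of 25 measured members 20 were called higher and 0 lower, 18 without overlap, and 14 were called with the set as a block, or 4 in the set alone. The median difference was 1.27 (1.21 with 4 members at their bounds), and 1.12 within the set. Those 4 members entered the tested genes, among the tumors, only through aP2-Cre arrays, which favours a difference. Usp18, an enzyme that removes the ubiquitin-like protein Isg15 from its targets, had 8.51 to 9.77 with a median of 8.98 in aP2-Cre tumors and 7.16, 6.13 and 6.31 in Myogenin-Cre tumors. It was 5.55-fold higher (adjusted p = 2.2e-06), and 5.14-fold higher within the set (adjusted p = 0.00062). Oasl2, of the family of antiviral oligoadenylate synthetases, had 8.73 to 10.40 with a median of 9.35 against 7.56, 6.67 and 6.42, a 5.64-fold difference (adjusted p = 2.23e-06, and 0.000402 within the set).

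Gbp3 and Isg15, whose promoters are printed above, belong to this group. Gbp3, a guanylate-binding protein of the defence against intracellular microbes, had 8.15 to 9.75 with a median of 8.68 in aP2-Cre tumors and 6.52, 6.33 and 6.28 in Myogenin-Cre tumors. No tumors overlapped, and the difference was 5.49-fold over all tumors and 5.52-fold within the set (adjusted p = 1.48e-05 and 0.00313). Isg15 averaged 7.80 ± 0.41 (SD, n = 15) against 6.10 ± 0.32 (n = 3), a log2 difference of 1.70 (adjusted p = 8.22e-05). Irf9, a subunit of the factor that binds the response element, was 2.31-fold higher (adjusted p = 4.02e-05, and 0.00368 within the set).

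Many macrophage genes were higher in aP2-Cre tumors. Of 26 measured members 17 were called higher, 1 lower and 8 neither way, and with the set as a block 12 were higher and 0 lower, or 2 and 0 in the set alone, at median differences of 1.42 and 1.19. Fcgr3, an antibody receptor, had 8.71 to 9.53 with a median of 9.28 in aP2-Cre tumors and 7.05, 7.78 and 7.15 in Myogenin-Cre tumors. It was 3.63-fold higher (adjusted p = 2.23e-06), and 3.51-fold within the set (adjusted p = 0.00062). Mpeg1, a pore-forming protein of macrophages, was 6.22-fold higher, Aif1, a cytoskeletal protein of macrophages, 5.86-fold, and Ms4a7, a membrane protein of macrophages, 5.69-fold (adjusted p = 0.000106, 0.000112 and 0.000169, and within the set 0.0202, 0.0132 and 0.0206), all without overlap. Cd163, the haemoglobin scavenger receptor of a subset of tissue macrophages, went the other way: it had 5.02 to 8.22 with a median of 6.78 against 8.22, 8.31 and 8.65, and was 3.28-fold lower (adjusted p = 0.0208, or 0.394 with the set as a block). Its call was lost without Myogenin-Cre tumor 41 or 43 (adjusted p = 0.0795 and 0.151).

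The lists of T cell, dendritic cell, B cell, NK cell and mast cell genes held at most 1 call each. The mean level over the macrophage list was 8.43 to 9.77 in aP2-Cre tumors and 7.47 to 7.95 in Myogenin-Cre tumors, so the groups did not overlap in it. For T cell genes, 0 of 14 measured members were called by limma, with a median difference of 0.54 over all tumors and 0.03 within the set, and the T cell list's mean level was 6.15 to 7.92 in aP2-Cre and 5.78 to 6.60 in Myogenin-Cre tumors. Of 10 measured dendritic cell genes 1 was called, near the 8.08% of all genes called higher. It was Cd86, a costimulatory ligand of antigen-presenting cells, which was 3.01-fold higher (adjusted p = 0.000465, and 0.0457 within the set). Of 4 measured B cell genes 1 was called lower, and of 3 NK cell genes 1 was called higher, neither with the set as a block. Of 9 mast cell genes 0 were called. Cd72, a receptor of B cells and macrophages, had 7.64 to 10.01 with a median of 8.52 against 6.14, 5.91 and 4.56, and was 9.12-fold higher (adjusted p = 2.98e-05, and 0.0082 within the set). The part of cell number in the class II, class I and interferon-stimulated differences was not tested.

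**Figure D3:**
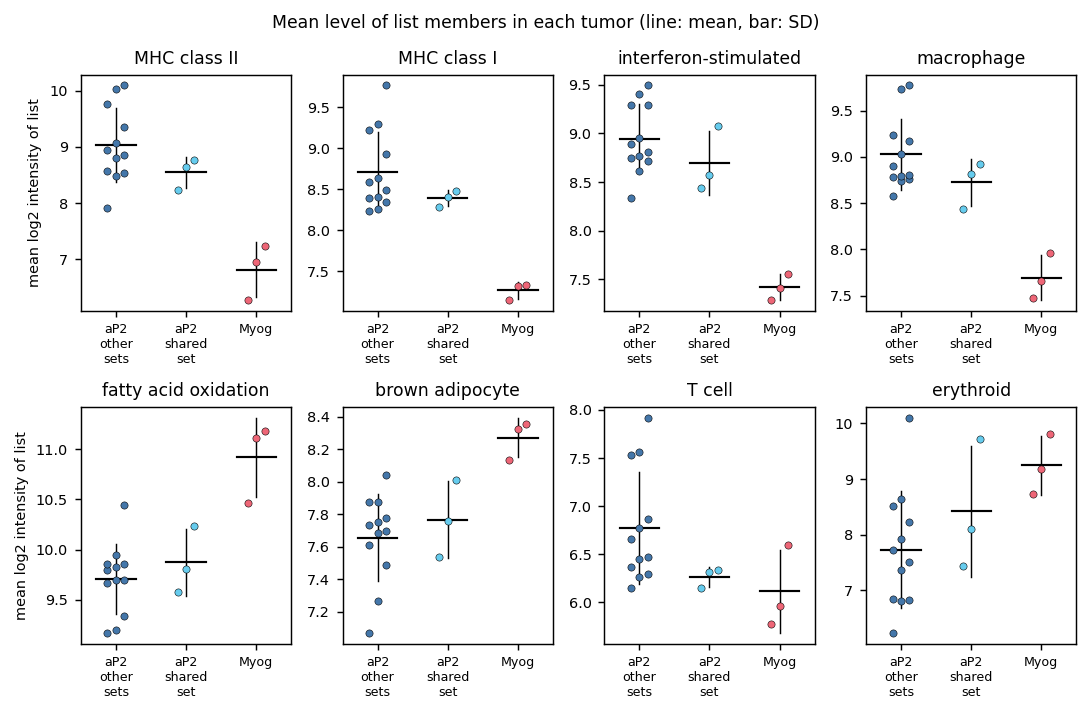
Mean log2 intensity over the measured members of 8 gene lists (y axis) in each tumor, grouped as the 12 aP2-Cre tumors of other sets, the 3 of the shared set and the 3 Myogenin-Cre tumors, with means (lines) and SDs (bars). The class II, class I, interferon-stimulated and macrophage lists are higher in every aP2-Cre tumor, while T cell and erythroid lists overlap.

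Chemokines, the attractants of leukocytes, included some of the largest differences. Of 24 measured chemokine and cytokine genes 11 were called higher and 0 lower, and 3 with the set as a block, or 7 without Myogenin-Cre tumor 41 and 5 without tumor 43. Ccl8, a monocyte attractant, had 6.63 to 11.39 with a median of 8.54 in aP2-Cre tumors and a mean of 5.17 ± 0.43 (SD, n = 3) in Myogenin-Cre tumors, detected in 2 of them, with no overlap. It was 11.4-fold higher (adjusted p = 0.00226) and 10-fold higher within the set, where it was not called (adjusted p = 0.0523). Cxcl14, a chemokine of epithelium and connective tissue, had 8.27 to 11.52 with a median of 10.32 against 7.30, 7.40 and 6.28, and was 8.9-fold higher (adjusted p = 0.000123, and 0.0188 within the set). Cxcl9, a T cell attractant induced by interferon gamma, was not detected in any Myogenin-Cre tumor, ranged from 6.85 to 12.16 in aP2-Cre tumors with tumor 115 far above the median of 7.79, and was at least 8.1-fold higher (adjusted p = 0.00617). With the set as a block Cxcl9 was not called (adjusted p = 0.19), and without Myogenin-Cre tumor 43 its adjusted p was 0.0672. Cxcl9 was also not called with no background correction (log2 difference 1.816, adjusted p = 0.0721) or with the authors' values (1.681, adjusted p = 0.1335). Ccl4, a macrophage product, was at least 4.45-fold higher (adjusted p = 0.000285, and 0.0206 within the set). Among the tumors, Cxcl9 and Ccl4 entered the tested genes only through aP2-Cre arrays, which favours a difference. Both bounds hold only for the background-corrected values used here. The log2 difference of Ccl4 was 1.189 with no background correction and 1.062 with the authors' values.

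Single matrix genes differed strongly. Mmp10, stromelysin-2, a protease that cleaves matrix proteoglycans and can activate other proteases, showed the largest difference of any called gene without overlap. It ranged from 7.44 to 12.60 with a median of 10.35 in aP2-Cre tumors and was 6.29, 6.36 and 5.08 in Myogenin-Cre tumors, where 2 of 3 arrays detected it. The aP2-Cre tumors spread widely, from tumor 164 at the bottom to tumor 174 at the top, and the mean was 10.38 ± 1.67 (SD, n = 15) against 5.91 ± 0.72 (n = 3), 22.1-fold higher (adjusted p = 0.00196). Within the set tumors 89, 90 and 95 had 12.08, 9.30 and 10.41, a 25.8-fold difference (adjusted p = 0.0287). Of 23 measured metalloproteinases and inhibitors 4 were called higher and 1 lower, the latter being Timp4, an inhibitor of these enzymes, which was 4.61-fold lower (adjusted p = 0.00514, or 0.178 with the set as a block and 0.0567 without Myogenin-Cre tumor 43). Without Myogenin-Cre tumor 41 or 43, 1 member was called higher.

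Cartilage and bone proteins were among the matrix genes that were higher. Acan, the large proteoglycan of cartilage, was detected in all 15 aP2-Cre tumors at 6.37 to 9.32 with a median of 8.26, and in no Myogenin-Cre tumor, and was at least 6.76-fold higher (adjusted p = 2.51e-06, and 0.000719 within the set). Among the tumors, Acan entered the tested genes only through aP2-Cre arrays, which favours a difference, so these p-values are no independent support. The bound holds only for the background-corrected values used here. Acan's log2 difference was 1.617 with no background correction and 1.477 with the authors' values. Comp, another cartilage matrix protein, had 9.33 to 11.53 with a median of 10.52 against 7.51, 8.73 and 6.91, and was 6.88-fold higher (adjusted p = 0.000138), with 6.99-fold within the set (adjusted p = 0.00507). Ibsp, bone sialoprotein, was 7.15-fold higher (adjusted p = 0.00437), with aP2-Cre tumor 104 overlapping the Myogenin-Cre tumors and no call with the block (adjusted p = 0.0821) or without Myogenin-Cre tumor 43 (adjusted p = 0.074). In that list 5 of 15 measured members were called higher and 0 lower, or 2 higher without Myogenin-Cre tumor 43. The cartilage collagen Col2a1 and the cartilage factor Sox9 had log2 differences of -0.24 and -0.50 without being called. Lama1, a laminin chain of basement membranes, had 8.89 to 10.65 with a median of 9.98 against 7.06, 7.72 and 5.89, and was 7.72-fold higher (adjusted p = 1.06e-05, and 0.00368 within the set).

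Among 29 measured extracellular matrix genes 11 were called higher and 2 lower, with a median difference of 0.54, or 0.66 within the set, where 7 were higher and 0 lower. Bgn, a small proteoglycan, and Ccn2, a matricellular protein induced by TGF-beta, were 1.75-fold and 1.93-fold higher (adjusted p = 0.00119 and 0.000674, and within the set 0.0372 and 0.0155). Eln, elastin, and Col4a1, a basement membrane collagen, were the members called lower, by 2.27-fold and 1.44-fold (adjusted p = 0.0308 and 0.0493), and neither was called with the set as a block (adjusted p = 0.702 and 0.557) or in the absence of any 1 Myogenin-Cre tumor, and Col4a1 was also lost without most single aP2-Cre tumors. Without Myogenin-Cre tumor 41 or 43 the members called higher were 6 and 3. TGF-beta and BMP pathway genes, with 9 of 20 measured members higher and 0 lower, included Fst, follistatin, an activin antagonist, at 3.37-fold (adjusted p = 0.000884, or 0.1 with the block), Tgfbr2, a TGF-beta receptor, at 1.91-fold (adjusted p = 0.00108, or 0.0528 with the block) and Id3, an inhibitor of differentiation that BMPs induce, at 1.9-fold (adjusted p = 0.000858, and 0.0163 within the set). That count of 9 was 3 without Myogenin-Cre tumor 41 and 4 without tumor 43.

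**Figure D4:**
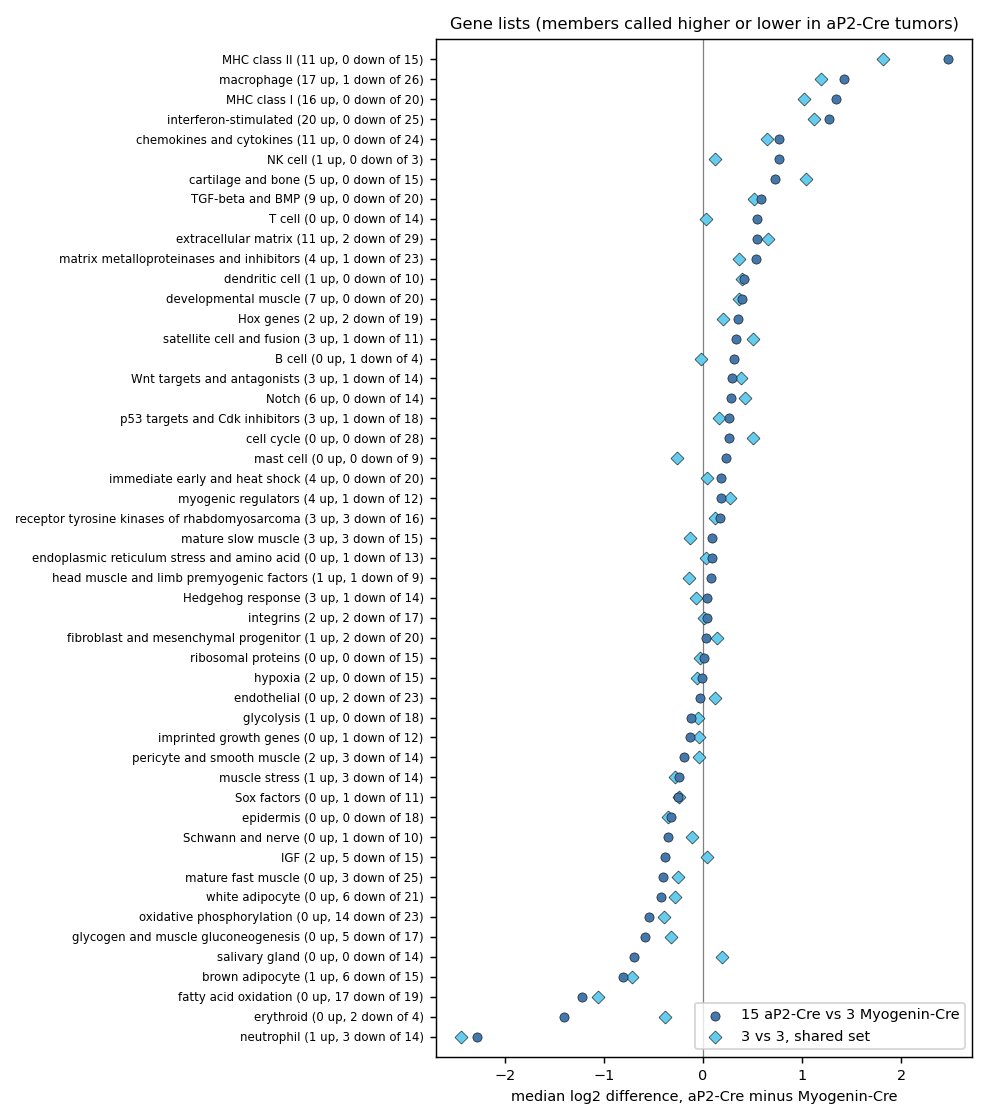
Median log2 difference (x axis, aP2-Cre minus Myogenin-Cre) over the measured members of 50 gene lists, for 15 against 3 tumors (circles) and 3 against 3 tumors of the shared set (diamonds), with the numbers of members called higher and lower over all tumors in brackets. Over all tumors the class II list is highest at 2.47 and the neutrophil list lowest at -2.28, though the latter is -1.08 without Myogenin-Cre tumor 41, above the fatty acid oxidation list at -1.11.

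Genes of fatty acid supply to and oxidation in mitochondria were lower in aP2-Cre tumors than in Myogenin-Cre tumors. Of 19 measured members 17 were called lower and 0 higher, against 7.68% of all genes called lower, 7 had every Myogenin-Cre tumor above every aP2-Cre tumor, against 2.4% of all genes, and 13 were called with the set as a block, but 0 by limma in the set's 6 arrays alone. The median difference was -1.23, and -1.06 within the set. Acaa2, the thiolase of the last step of the cycle, had 7.02 to 9.17 with a median of 8.22 in aP2-Cre tumors and 10.29, 9.64 and 10.22 in Myogenin-Cre tumors. The groups did not overlap, and the level was 3.81-fold lower in aP2-Cre tumors (adjusted p = 0.000285) and 3.33-fold lower within the set (adjusted p = 0.0287). Slc25a20, the carrier that brings acylcarnitines into mitochondria, had 9.64 to 10.80 with a median of 10.25 against 11.69, 11.13 and 11.48, and was 2.35-fold lower (adjusted p = 0.000139, and 0.00929 within the set).

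Further steps of the pathway showed the same order. Etfb, which passes electrons from the first step to the respiratory chain, had 10.99 to 12.20 with a median of 11.61 against a mean of 12.81 ± 0.28 (SD, n = 3), a 2.37-fold difference (adjusted p = 0.000257, and 0.0297 within the set). Decr1, needed for unsaturated fatty acids, was 2.19-fold lower (adjusted p = 0.000272, and 0.0169 within the set). Both kept the groups apart, and in each Myogenin-Cre tumor 42 was the lowest of its group. Hadha, a subunit of the trifunctional enzyme, and Cpt1b, the muscle form of the transferase that starts the pathway, had log2 differences of -1.54 and -1.73 (adjusted p = 0.000319 and 0.0139), the latter not called with the block (adjusted p = 0.171). The members not called were Acads and Hadh, with log2 differences of -0.30 and -0.22.

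**Figure D5:**
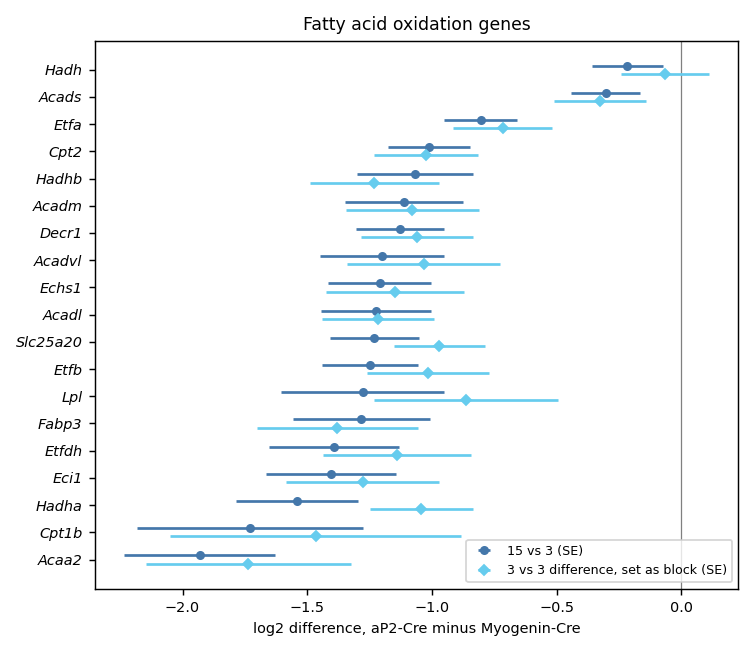
Log2 difference (x axis, aP2-Cre minus Myogenin-Cre) with its SE for each of the 19 measured fatty acid oxidation genes, over 15 against 3 tumors (circles) and within the shared set, with the set as a block (diamonds). All points lie below 0, from Acaa2 at -1.93 to Hadh at -0.22 over all tumors.

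Single genes of lipid handling were also lower. Acot1, an acyl-CoA thioesterase, had 7.10 to 9.75 with a median of 8.27 in aP2-Cre tumors and 11.90, 9.92 and 12.56 in Myogenin-Cre tumors, and was 9.61-fold lower in the former (adjusted p = 0.00019, and 0.0175 within the set). Plin5, a lipid droplet protein of oxidative tissues, had 4.54 to 8.43, detected on 13 of 15 arrays, against 10.28, 8.49 and 9.75. It was 7.53-fold lower (adjusted p = 0.00281), and 4.39-fold lower within the set without a call (adjusted p = 0.132). Angptl4, a secreted inhibitor of lipoprotein lipase, was 6.06-fold lower over all tumors (adjusted p = 0.0115) and 2.39-fold lower within the set (adjusted p = 0.345), where tumors 89, 90 and 95 had 10.15, 9.45 and 9.86 against 10.96, 11.14 and 11.14. Without Myogenin-Cre tumor 41 or 43 it was not called (adjusted p = 0.0555 and 0.0848). Pnpla2, the lipase that starts the breakdown of stored fat, was 3.09-fold lower (adjusted p = 0.000909, and 0.0329 within the set).

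Fat cell regulators were mixed. Pparg, the master regulator of fat cell formation, had 6.12 to 7.41 with a median of 6.75 in aP2-Cre tumors and 8.21, 8.14 and 7.69 in Myogenin-Cre tumors. The groups did not overlap, and Pparg was 2.35-fold lower in aP2-Cre tumors (adjusted p = 0.00121), with 2.09-fold within the set and no call there (adjusted p = 0.0639). Adipoq, a hormone made by fat cells, overlapped, with 6.43 to 9.79 against 9.24, 9.40 and 8.82, and was not called (adjusted p = 0.546). Of 21 measured white adipocyte genes 6 were called lower and 0 higher, or 2 and 0 with the block and 3 lower without Myogenin-Cre tumor 43, at a median difference of -0.42, which was -0.12 with no background correction and -0.17 with the authors' values. The mean level over that list was 7.39 to 8.71 in aP2-Cre tumors and 8.54 to 8.66 in Myogenin-Cre tumors, while muscle pieces had 10.16 to 10.42, and the part of fat in the tumor pieces was not tested. Fabp4, whose promoter drove Cre in the aP2-Cre mice, was not among the 11034 genes.

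Brown adipocyte genes included a called transcription factor. Ebf2, a regulator of brown fat precursors, had 4.87 to 6.70 with a median of 5.88 in aP2-Cre tumors, detected on 12 of 15 arrays, and 8.11, 7.84 and 9.24 in Myogenin-Cre tumors. It was 6.41-fold lower in aP2-Cre tumors (adjusted p = 1.48e-05) and 4.47-fold lower within the set (adjusted p = 0.00856), with no overlap in either. Cidea, a lipid droplet protein of brown fat, was 2.37-fold lower (adjusted p = 0.00298, and 0.0366 within the set). Of 15 measured members 6 were called lower and 1 higher, Zic1, a transcription factor of classical brown fat and somite derivatives, at 1.92-fold (adjusted p = 0.0304, and 0.037 within the set, but 0.166 without Myogenin-Cre tumor 41 and 0.296 without tumor 43). Without Myogenin-Cre tumor 43, 3 members were called lower, and without tumor 41, 4. Ucp1, the uncoupling protein that defines brown fat, was detected in 2 aP2-Cre and 1 Myogenin-Cre tumors and was not called (log2 difference -0.27), and the list's median was -0.81, or -0.40 with 2 members at their bounds.

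For respiratory chain genes the number of calls depended on the scaling. Of 23 measured members of the oxidative phosphorylation list 14 were called lower and 0 higher, at a median difference of -0.54, with 0 called with the set as a block and 0 when arrays were centred on their median, where the median of all genes rose to 0.17 and that of the list was -0.42. Leaving out Myogenin-Cre tumor 41 or 43 left 1 call each, and with the muscle arrays left out of the fit 8 were called lower. Atp5c1, a subunit of ATP synthase, had 11.92 to 12.70 with a median of 12.13 against 13.16, 12.57 and 12.97, and was 1.61-fold lower (adjusted p = 0.00258, or 0.103 with the block). Ndufv1, a subunit of the first complex of the chain, was 1.46-fold lower (adjusted p = 0.00826, or 0.104 with the block).

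Fbp2, the muscle form of fructose bisphosphatase, an enzyme of glycogen synthesis from lactate, was the gene with the second largest fitted difference in this direction. It had 5.12 to 8.44 with a median of 6.56 in aP2-Cre tumors, detected on 13 of 15 arrays, and 10.72, 9.68 and 10.29 in Myogenin-Cre tumors. It was 11.2-fold lower in aP2-Cre tumors without overlap (adjusted p = 0.000909), and 7.4-fold lower within the set, where it was not called (adjusted p = 0.0629). Ppp1r1a, an inhibitor of protein phosphatase in muscle and brain, was 7.1-fold lower (adjusted p = 0.00118, and 0.034 within the set). Kcne1l, a regulatory subunit of potassium channels, had 5.57 to 8.30 against 10.09, 9.45 and 10.06, a 9.23-fold difference (adjusted p = 0.000169, and 0.0291 within the set), although its mean in normal muscle was 6.33. Sult5a1, a sulfotransferase, and Sbspon, a secreted matrix protein, were 6.23-fold and 5.88-fold lower (adjusted p = 0.000236 and 0.000453), with detection in 4 and 6 of 15 aP2-Cre tumors.

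Most markers of mature muscle were not called. Of 25 measured fast muscle genes 3 were called lower, Fbp2, Mylk2 and Smtnl1, and 0 higher, and only Fbp2 was called without Myogenin-Cre tumor 41 or 43. Over all genes 7.68% were called lower. Of 15 measured slow muscle genes 3 were called higher and 3 lower, against 15.8% of all genes called either way. In that list 0 were called with the set as a block, and 0 without Myogenin-Cre tumor 41 or 43. Ckm, muscle creatine kinase, ranged from 8.02 to 13.94 in aP2-Cre tumors, with tumor 115 lowest, and was 13.53, 12.88 and 13.28 in Myogenin-Cre tumors, so it was not called (adjusted p = 0.249). Acta1, skeletal actin, lay at 14.90 to 15.18 against 14.96, 15.02 and 15.04, near the top of the array's scale at ranks 6 and 8 in brightness. Des, the muscle intermediate filament, had a log2 difference of 0.04 (adjusted p = 0.848).

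Of 12 measured regulators of the muscle lineage, 4 were called higher and 1 lower in aP2-Cre tumors. Myog, the gene whose promoter drove Cre in the other mice, had 10.61 to 11.92 with a median of 11.23 in aP2-Cre tumors and 9.94, 11.19 and 9.83 in Myogenin-Cre tumors. It was 1.88-fold higher in aP2-Cre tumors (adjusted p = 0.0203, or 0.0921 with the set as a block), and Myogenin-Cre tumor 42 lay within their range. Myod1, which commits cells to muscle, had 8.62 to 10.41 with a median of 9.65 against 8.46, 9.48 and 8.18, a 2-fold difference (adjusted p = 0.0198, or 0.121 with the block). Neither was called without Myogenin-Cre tumor 41 (adjusted p = 0.171 and 0.134) or 43 (adjusted p = 0.237 and 0.231). Mef2c, a partner of these factors, and Meox1, a somite factor, were also called higher, but neither without tumor 43 (adjusted p = 0.14 and 0.234). Meox2, a homeobox factor of limb muscle, was 3.57-fold lower (adjusted p = 0.00226, or 0.0715 with the block).

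Genes of developing muscle were in part higher. Of 20 measured members 7 were called higher and 0 lower, at a median difference of 0.39, with 0 called with the set as a block, 1 without Myogenin-Cre tumor 41, 11 without tumor 42 and 0 without tumor 43. Mymk, a membrane protein of myoblast fusion, had 9.14 to 10.28 with a median of 9.87 against 8.28, 9.56 and 8.16, and was 2.22-fold higher (adjusted p = 0.00275). Chrng, the fetal subunit of the acetylcholine receptor, was 1.95-fold higher (adjusted p = 0.00677). In both, only Myogenin-Cre tumor 42 lay within the aP2-Cre range. Myh8, perinatal myosin, and Igf2, a fetal growth factor, were among the 12 brightest genes of both kinds of tumor and were not called (adjusted p = 0.326 and 0.398).

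Hedgehog pathway genes did not move together. Ptch1, which binds Hedgehog ligands and is itself induced by the pathway, had 8.29 to 9.76 with a median of 9.26 in aP2-Cre tumors and 8.55, 9.65 and 9.96 in Myogenin-Cre tumors, and was not called (log2 difference -0.19, SE 0.25, adjusted p = 0.648). Hhip, a target that binds the ligand, averaged 7.89 ± 0.66 (SD, n = 15) against 8.89 ± 0.45 (n = 3) and was not called (adjusted p = 0.0591), although it was with no background correction (adjusted p = 0.0425) or with Y-linked detection as a covariate (adjusted p = 0.00949). Gli2, a transcription factor of the pathway, was 1.59-fold lower (adjusted p = 0.022), and Ccnd1, cyclin D, and Foxf1, a forkhead target, were 1.99-fold and 1.82-fold higher (adjusted p = 0.0136 and 0.0267), none of the 3 with the set as a block (adjusted p = 0.148, 0.487 and 0.415). The Gli2 call was also lost with arrays centred on their median (adjusted p = 0.173), and of the list's members called higher 0 remained called without Myogenin-Cre tumor 41 or 43. Cdon, a Hedgehog co-receptor, was 2.08-fold higher (adjusted p = 0.0244, and 0.0333 within the set, but 0.162 and 0.289 without those tumors). Smo, whose probe may also read the SmoM2 allele, had a log2 difference of -0.32 (SE 0.16, adjusted p = 0.186, or 0.0318 with that covariate), and the median of the 14 measured members was 0.04.

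The mean level of neutrophil genes was highest in Myogenin-Cre tumor 41. Stfa2, a stefin, a cysteine protease inhibitor of mouse neutrophils, was not detected in any aP2-Cre tumor and had 10.23, 6.18 and 8.13 in Myogenin-Cre tumors 41, 42 and 43. It was at least 7.54-fold lower in aP2-Cre tumors (adjusted p = 1.15e-05, and 0.00368 within the set), and had entered the tested genes only through the 3 Myogenin-Cre arrays, so a difference was bound to appear. That bound holds only for the background-corrected values used here. Stfa2's log2 difference was -1.757 with no background correction and -1.738 with the authors' values. Stfa1 was 9.47-fold lower and detected on 3 of 15 aP2-Cre arrays (adjusted p = 0.000112, and 0.0114 within the set). The stefin-like Cstdc4, detected on 1 aP2-Cre array, had likewise passed the filter only through the Myogenin-Cre arrays, where it had 8.96, 5.49 and 7.49. Lcn2, a siderophore-binding granule protein, had 4.97 to 8.95 with a median of 6.00 against 9.79, 7.44 and 10.60, an 8.4-fold difference that overlapped (adjusted p = 0.00416, or 0.108 with the block and 0.0925 without Myogenin-Cre tumor 43). Of 14 measured members 3 were called lower and 1 higher, Il1b, an inflammatory cytokine, at 3.21-fold (adjusted p = 0.0406, or 0.273 with the block), a call lost without any 1 Myogenin-Cre tumor. Over all genes 7.68% were called lower and 8.08% higher. With detection required on at least 9 arrays, 1 member of the list was called lower. S100a8, S100a9 and Mpo, granulocyte proteins, had log2 differences of -2.42, -2.31 and -2.52 and were not called. The mean level of the neutrophil list was 9.22, 6.76 and 7.80 in Myogenin-Cre tumors 41, 42 and 43, and aP2-Cre tumor 128, at 8.29, lay above the latter pair. The list's median difference of -2.28 was -1.08 without Myogenin-Cre tumor 41, -1.32 with no background correction and -1.31 with the authors' values.

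Red cell and gland RNA also differed among the tumors. Slc4a1, the anion exchanger of red cells, had 4.39 to 9.72 with a median of 5.88 against 10.81, 9.82 and 8.63, and was called lower (adjusted p = 0.0359, or 0.282 with the block), a call lost without any 1 Myogenin-Cre tumor. The mean level of the erythroid list was 6.24 to 10.10 in aP2-Cre tumors and 8.74 to 9.81 in Myogenin-Cre tumors. Salivary gland genes ranged over nearly the whole scale within each kind of tumor: the list's mean level was 11.14 in aP2-Cre tumor 89, 9.32 in tumor 90 and 5.13 in tumor 95, and 10.11, 5.73 and 7.35 in Myogenin-Cre tumors 41, 42 and 43. Of its 14 measured members 0 were called by limma over all tumors. The part of blood and gland tissue in the results above was not tested.

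Several programs held few or no calls. Of 28 measured cell cycle genes 0 were called by limma, at a median difference of 0.26, and 0.50 within the set. That median was -0.06 without Myogenin-Cre tumor 43, 0.61 without tumor 42 and 0.05 with the authors' values. For Cdkn1a, the Cdk inhibitor p21, the log2 difference was 0.23 (SE 0.14, adjusted p = 0.268), and for Cdkn2a, which encodes further inhibitors and was detected in 8 of 15 aP2-Cre and 0 of 3 Myogenin-Cre tumors, it was not called (adjusted p = 0.107). Dlk1, an imprinted inhibitor of fat cell formation, was at 13.20 to 14.72 against 14.06, 14.51 and 14.35 (adjusted p = 0.698). Of 18 measured glycolysis genes 1 was called, Hk1, a hexokinase, which was 1.67-fold higher (adjusted p = 0.0281, or 0.452 with the block and 0.0804 and 0.232 without Myogenin-Cre tumor 41 or 43). Of 15 ribosomal protein genes 0 were called, at a median difference of 0.01.

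Insulin-like growth factor genes split. Igf2bp3, a fetal RNA-binding protein that binds Igf2 mRNA, had 4.79 to 6.96 with a median of 5.49, detected on 11 of 15 arrays, against 7.77, 8.04 and 7.52, and was 4.41-fold lower in aP2-Cre tumors (adjusted p = 0.000155, and 0.0226 within the set). Igfbp6, a binding protein that prefers Igf2, was 3.88-fold lower (adjusted p = 0.000453, and 0.027 within the set). Igfbp5 and Igfbp7, binding proteins of muscle and vessels, were 1.64-fold and 1.78-fold higher (adjusted p = 0.00481 and 0.00393), neither with the block (adjusted p = 0.16 and 0.0954). In all, 5 of 15 measured members were lower and 2 higher, and without Myogenin-Cre tumor 43 these counts were 2 and 0.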

How the data were processed

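RNA was labelled with biotin and measured on bead arrays, per the labels. The authors deposited a non-normalized table with linear intensity and a detection p-value for every probe on each array, and a table of intensity normalized in 5 sets, as their shared value distributions show. The submitters' processing notes name BeadStudio, without a version. For other steps and the genome build, the sources used here give nothing.

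The deposited intensities of all 21 arrays were background-corrected and quantile normalized (neqc, offset 16, limma 3.58.1, R 4.3.3). Probes with a detection p under 0.01 on at least 3 arrays were kept, 19655 of 45281. By GEO's platform annotation 1 gene symbol belongs to 34885 probes, several to 18 and none to 10378, and 34807 matched RefSeq. The probe with the highest mean stood for each of 11034 genes. Limma (eBayes with trend, two-sided, Benjamini-Hochberg) was fitted over the 3 groups, which share 1 spread, and was tested on simulated data. P-values measure the spread between these mice. A gene not detected in a group has a bound: the bright mean over that group's higher of own and lowest detected level. Such bounds hold only for the background-corrected values used here. Among the tumors, such a gene passed the probe filter only through the other kind of tumor, which favours a difference.

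Named genes were 24 anchor genes, of which 22 were measured, the 12 largest called differences each way without overlap, and up to 4 called members per direction of 50 lists. Ciita, Isg15, Hadha, Cpt1b, Acads, Hadh, Ucp1, Col2a1, Sox9, S100a8, S100a9 and Mpo were chosen after their values were seen. Members and lists were chosen with earlier results of these data known. The column of Myogenin-Cre tumor 42, spelled with transposed letters, was matched by its number. Alternatives covered samples, background, scaling, authors' values, probe filter, probes, weights, array set, Y-linked detection and each tumor left out.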

Additional observations from a re-analysis of the deposited data

How the results depend on the processing

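No paired analysis was possible because the 2 kinds of tumor share no mouse number. Over all tumors, 529 genes were called with the authors' normalized values (207 higher, 322 lower in aP2-Cre), 3092 with array weights (1661 and 1431), 409 with the array set as a block (201 and 208) and 45 with the shared set alone (33 and 12). With the muscle arrays left out of the fit 1407 genes were called (722 and 685). Centring arrays on their median gave 1035 higher and 226 lower, 82.1% higher against 51.3%. Leaving out 1 tumor gave 366 to 2193 calls (196 to 1188 higher, 170 to 1005 lower). Within the shared set, limma called 25 genes with no probe filter (21 and 4), and 0 to 655 without 1 tumor (0 to 418 higher, 0 to 237 lower). No gene called over all tumors was called in the opposite direction under any alternative. The median of the Hedgehog list was 0.2269 with centring, 0.1832 with weights and -0.07465 with the block or the shared set, and -0.08168 to 0.1928 without 1 tumor. That of myogenic regulators was 0.06186 with no background correction, 0.328 centred, 0.01625 with the authors' values and 0.30 with detection on at least 9 arrays. With no background correction and with the authors' values, the medians were 0.9539 and 0.8428 for MHC class II, 0.7832 and 0.6953 for class I, 0.7986 and 0.7136 for interferon-stimulated genes, and -0.3007 and -0.3126 for brown adipocyte genes. With the authors' values they were 0.2561 for extracellular matrix and 0.9554 for macrophage genes, and with no probe filter 1.493 for class II. Without 1 tumor the range was 0.2149 to 1.188 for cartilage and bone, 0.2876 to 0.5951 for developmental muscle and 0.3105 to 0.8863 for extracellular matrix. The sign turned for the IGF list, at 0.04457 with the block or shared set and -0.5127 to 0.06765 without 1 tumor (the latter without Myogenin-Cre tumor 42), and for B cell genes, at -0.01965 with the block or shared set. It also turned with the block or shared set for salivary gland (0.1867), mast cell (-0.2629), mature slow muscle (-0.1363), head muscle (-0.147) and endothelial genes (0.1173), without Myogenin-Cre tumor 41 for epidermis (0.3425), without tumor 43 for the cell cycle (-0.0597), and under some alternative for 6 lists whose median was under 0.14 in size: fibroblast, integrin, hypoxia, ribosomal, imprinted and endoplasmic reticulum stress genes. The cause of these shifts was not tested. An exact two-sided permutation test over 816 arrangements of 18 tumors gave p = 0.00123, the smallest it can give, for Cd74, H2-Eb1, Mmp10, Fbp2 and Pparg, among 22 genes tested. For these genes the groups did not overlap, which all but fixes that p, and all except Pparg were given beforehand as markers of this comparison. The arrangements also ignored the array sets, so the test is no separate support. Dim probes, with signal near background, limit the folds of genes detected on few arrays.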
